A study of Mus musculus with 2 samples.

Results

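Tff3 encodes trefoil factor 3, and it was the gene with the largest negative ratio between an AEG-1ΔMAC and an AEG-1fl/fl mouse liver analysed by spatial transcriptomics (ST). It was chosen by its symbol as 1 of 19465 genes in the probe set, and that ratio was the reason for choosing it. There was 1 section, and so 1 library, of each genotype. The AEG-1ΔMAC mouse carried floxed Mtdh, the gene of AEG-1, together with Cre recombinase driven from the Lyz2 locus, which removes the gene in myeloid cells such as macrophages and neutrophils but not in hepatocytes. The AEG-1fl/fl mouse was a littermate with the floxed gene and no Cre. Both mice were 27 weeks old. By the sample labels both received a high fat/high sugar diet from 7 weeks of age, for 20 weeks, while the study describes this assay as done in control diet-fed littermates, so the diet was not settled. Both sections were on the same slide. With 1 library a genotype, genotype, mouse, section and capture area cannot be told apart, no test was possible, and every interval below is a 95% interval for counting error only.

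Trefoil factors are small secreted peptides built around a loop that is held by cysteine bridges, and they are best known from mucous epithelia, where they are released with mucins and help the surface to heal. TFF3 is the typical trefoil factor of intestinal goblet cells. In liver it has been described in bile duct epithelium and in hepatocytes. The liver lobule is laid out from the portal tract, with its bile duct and vessel branches, to the central vein. Hepatocytes of the periportal zone (PP, zone 1), the midlobular zone (ML, zone 2) and the pericentral zone (PC, zone 3) express different metabolic genes, so the position of an RNA in the lobule can be read from the genes around it.

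Tff3 (ENSMUSG00000024029) lies on the minus strand of chromosome 17, at chr17:31125306-31129646 of GRCm38, the assembly also called mm10, and its annotated transcript Tff3-201 has 3 exons. The first exon spans 31129492 to 31129646, the second 31127365 to 31127511 and the third 31125306 to 31125496. The transcript is 493 bases long, and 246 of them, stop codon included, are coding. The coding sequence is shown because it is the part of this short gene that makes it a trefoil factor. It was read from the GENCODE release M21 transcripts, 5′ to 3′ on the coding strand, with the 7 cysteine codons in capitals.
Tff3: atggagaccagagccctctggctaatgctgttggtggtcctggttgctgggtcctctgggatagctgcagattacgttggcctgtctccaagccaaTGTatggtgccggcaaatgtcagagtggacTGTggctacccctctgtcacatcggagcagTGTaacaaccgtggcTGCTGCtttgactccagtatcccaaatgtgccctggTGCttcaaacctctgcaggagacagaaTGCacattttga
The open reading frame has 81 codons before the stop. The cysteine codons are at positions 33, 43, 53, 58, 59, 70 and 79, counted from the start codon, and 2 of them are adjacent. None lies in the first 32 codons, a stretch that begins with the signal sequence of the secreted peptide.

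After filtering, the AEG-1ΔMAC section had 2140 spots with 45453286 unique molecular identifiers (UMIs) in sum, and the AEG-1fl/fl section had 2540 spots with 50322850. A spot is a small region with several cells, and the median spot had 20930 UMIs in AEG-1ΔMAC against 18285 UMIs in AEG-1fl/fl. Mtdh was at 66.3 CPM, its counts per 1000000 UMIs of the library, in AEG-1ΔMAC against 60.2 CPM in AEG-1fl/fl. Hepatocytes keep Mtdh in both genotypes, so this level does not check a deletion in myeloid cells. All 7 hepatocyte markers were detected in both libraries, as the labelled tissue requires. The 6 listed islet genes summed to 0.022 CPM in AEG-1ΔMAC against 0 CPM in AEG-1fl/fl. The libraries shared 1776 spot barcodes, which name the same array position in each capture area.

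Tff3 was a gene of nearly every spot in AEG-1fl/fl and of a minority of spots in AEG-1ΔMAC. In AEG-1ΔMAC 437 Tff3 UMIs gave 9.61 CPM (8.73 to 10.6). In AEG-1fl/fl 17848 UMIs gave 355 CPM (349 to 360). The log2 ratio was -5.21 (-5.35 to -5.07), which is 36.9-fold lower in AEG-1ΔMAC. This ratio chose the gene, so it is a description. Of 6933 genes whose mean was 10 CPM or more, 36 were at least 2-fold lower in AEG-1ΔMAC with an interval below 0, which is 0.519%, and the median log2 ratio was 0.15. Of the 2181 genes whose mean was 50 CPM or more, the second largest negative log2 ratio was -2.38, so a gap separated Tff3 from the rest of the order. Next came Depp1, a gene induced by FOXO factors, with a log2 ratio of -2.17 (-2.27 to -2.07), and Lpl, which encodes lipoprotein lipase, with -1.91 (-1.98 to -1.85). In bulk sums such as these, fewer cells with the RNA and less RNA per cell cannot be told apart, and the distribution over spots was therefore examined.

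In AEG-1ΔMAC, 346 of 2140 spots had a Tff3 UMI, a share of 16.2% (14.6 to 17.8, exact binomial). In AEG-1fl/fl, 2451 of 2540 spots had one, a share of 96.5% (95.7 to 97.2). The shares depend on depth. When every spot was thinned to 10000 UMIs, which left out 26 AEG-1ΔMAC spots and 106 AEG-1fl/fl spots below that depth, 7.99% (6.87 to 9.23) and 93.0% (91.9 to 94.0) of spots had a Tff3 UMI. When the Tff3 UMIs of AEG-1fl/fl were thinned at random to the CPM of AEG-1ΔMAC, 16.6% of its spots had one, a share that is largely set by the matched level. For comparison, Tff1 had 0 UMIs in both libraries. The limit that a count of 0 allows, taken as 3 UMIs in the library, was 0.066 CPM in AEG-1ΔMAC against 0.0596 CPM in AEG-1fl/fl, and the 437 Tff3 UMIs of AEG-1ΔMAC lay far above this floor.

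The counts per spot formed different shapes. In AEG-1ΔMAC 1794 spots had 0 Tff3 UMIs, 285 had 1, 41 had 2 and 20 had 3 or more, up to 6 UMIs in a spot of 24887 UMIs in all. If each spot had held the same share of Tff3, 1747 spots would have had 0 and 2.9 would have had 3 UMIs, where 13 were observed. The excess was thus at both ends. In AEG-1fl/fl the median spot had 6 Tff3 UMIs, 90% of spots lay between 1 and 17, and the highest had 40 in a spot of 31613 UMIs in all. Here 89 spots had 0 where an even share gave 18.0, and 77 had 20 or more. The 10% of spots with the most Tff3 UMIs held 26.2% of them in AEG-1fl/fl and 69.8% in AEG-1ΔMAC, where 1 UMI already placed a spot above most of the section.

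**Figure D1:**
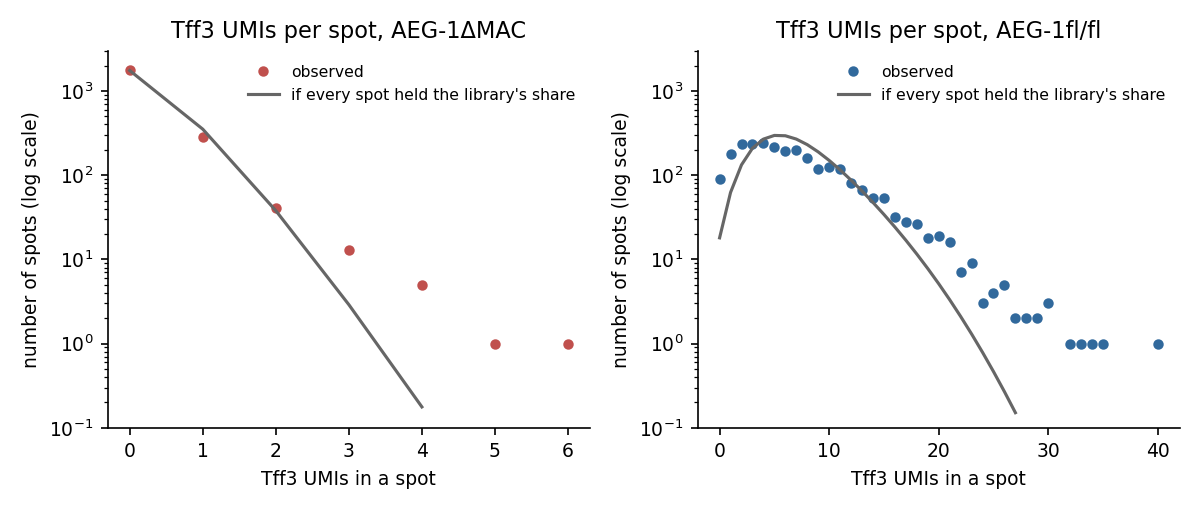
Number of spots (log axis) by the number of Tff3 UMIs in the spot, in AEG-1ΔMAC (left) and AEG-1fl/fl (right). Points are observed spots, and the grey line gives the number of spots if each spot held the library's share of Tff3 at its own depth. AEG-1ΔMAC spots ran from 0 to 6 UMIs and AEG-1fl/fl spots from 0 to 40 UMIs, and in both the points lay above the line at the high end and at 0.

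Spread beyond counting was measured as the excess squared coefficient of variation, which is the variance of the thinned counts minus their mean, over the squared mean. It was 0.227 in AEG-1fl/fl and 1.48 in AEG-1ΔMAC. The median of the 6768 genes with at least 10 CPM in AEG-1fl/fl was 0.0168, and 597 of them had a larger value than Tff3. In AEG-1ΔMAC the median of the 7055 genes with at least 10 CPM there was 0.0196, and 52 had a larger value than Tff3. At 9.61 CPM Tff3 itself was below that limit. The AEG-1ΔMAC value rests on a mean of 0.0875 thinned UMIs per spot and was 0.367 at a depth of 5000 UMIs, so it is imprecise. In AEG-1fl/fl 56.3% of the variance of the thinned counts equalled counting variance, 17.0% lay between 20 bins along the lobule and 26.8% lay within those bins. The remainder within bins was larger than the part tied to position. Tff3 CPM also moved with spot depth in AEG-1fl/fl, from 298 (286 to 311) in the 25% of spots with the fewest UMIs to 377 (369 to 386) in the 25% with the most. In AEG-1ΔMAC 4 such groups ran from 8.96 to 10.6 CPM with overlapping intervals.

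Tff3 was higher on the zone 1 side of the lobule than on the zone 3 side in both libraries. Spots were ranked in each library by 3 zone 3 markers (Cyp2e1, Cyp1a2 and Oat) minus 6 zone 1 markers (Arg1, Cyp2f2, Gls2, Hal, Hsd17b13 and Pck1), and Tff3 took no part in the ranking. The ranked spots were divided into 3 equal parts and into 10 equal bins. In AEG-1fl/fl the zone 1 part had 461 CPM (451 to 472), the middle part 370 CPM (361 to 379) and the zone 3 part 230 CPM (223 to 238). In AEG-1ΔMAC the same parts had 17.0 CPM (15.0 to 19.2), 8.73 CPM (7.31 to 10.3) and 3.07 CPM (2.24 to 4.09). No interval of neighbouring parts overlapped within a library. The log2 ratio of the zone 3 part to the zone 1 part was -1.002 (-1.06 to -0.95) in AEG-1fl/fl and -2.47 (-2.96 to -2.02) in AEG-1ΔMAC. In AEG-1fl/fl 24 of 6759 genes outside the index were at least 2-fold higher on the zone 1 side, which is 0.355%, and Tff3 was among them, with 23 genes more zone 1-sided. In AEG-1ΔMAC it was 48 of 7046 genes with at least 10 CPM there, which is 0.681%. Tff3, at 9.61 CPM, was just below that limit and so not among these genes. The single gene of this set with a more negative ratio than Tff3 was Spp1 at -2.57 (-2.74 to -2.40), which encodes osteopontin and marks bile duct cells. The Tff3 interval also held the ratios of genes such as Aldh1b1 (-2.17) and Sds (-2.03), so its place in this order is not settled.

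The decline was steeper in AEG-1ΔMAC, and so was that of the zone 1 index genes, which may be used as a scale. Cyp2f2, a periportal cytochrome P450, had a zone ratio of -1.71 in AEG-1ΔMAC against -1.32 in AEG-1fl/fl. Arg1, the last enzyme of the urea cycle, had -0.70 and -0.52. All 6 zone 1 index genes were more negative in AEG-1ΔMAC, by less than Tff3 in each case. Of these 6 genes only Arg1 and Pck1 (-0.99) were closer to 0 than Tff3 in AEG-1fl/fl, whereas none of the 6 reached the Tff3 value in AEG-1ΔMAC. The ranking was made in each library on its own, so the same part need not cover the same positions in both sections. Spot positions were not used here, and the difference in slope could not be tested with 1 library a genotype.

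By bins of 10% of spots, Tff3 in AEG-1fl/fl went from 523 CPM (503 to 544) in the bin nearest zone 1 to 145 CPM (134 to 157) in the bin nearest zone 3. Bins 3 to 7 lay between 339 and 426 CPM, and the steepest part of the decline was in the last 3 bins. In AEG-1ΔMAC the first 2 bins had 18.4 and 18.3 CPM and the last 2 had 2.65 and 2.49 CPM, from 81, 81, 12 and 11 UMIs. The share of spots with a Tff3 UMI fell from 26.6% to 4.67% across the 10 bins in AEG-1ΔMAC, while the AEG-1fl/fl share went from 99.2% to 85.0%. Of the 89 AEG-1fl/fl spots without a Tff3 UMI, 68 lay in the zone 3 part, and their median depth was 12514 UMIs. Zone bin and depth together would have given 51.3 such spots. All 20 AEG-1ΔMAC spots with 3 or more Tff3 UMIs lay in the zone 1 part, where zone bin and depth would have given 5.89 spots in the whole section. The ratio between the libraries accordingly differed along the lobule, from -4.76 (-4.95 to -4.58) in the zone 1 part to -6.23 (-6.68 to -5.81) in the zone 3 part, on the log2 scale.

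**Figure D2:**
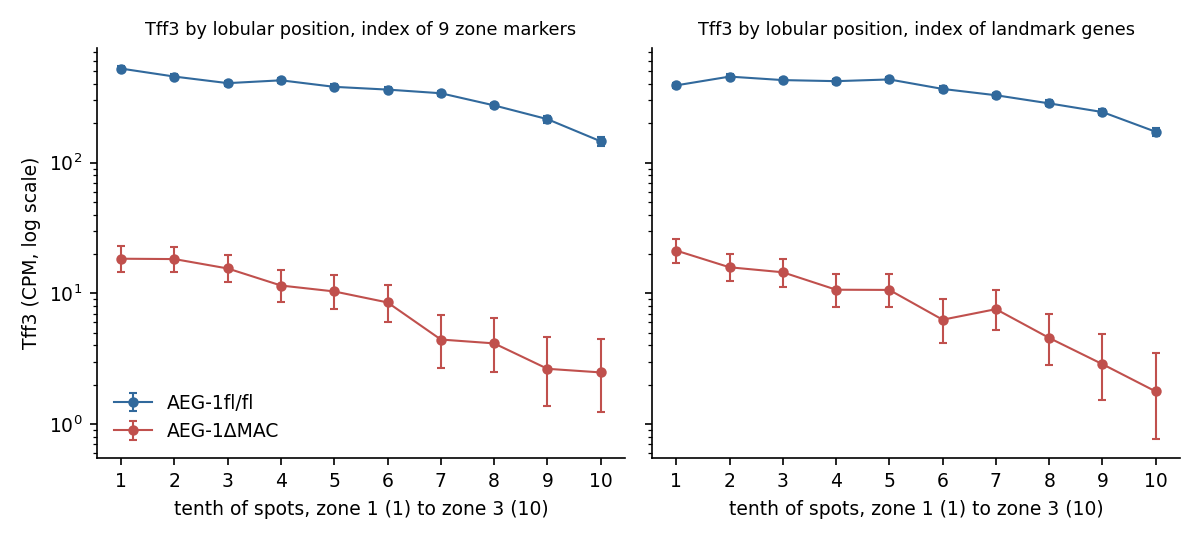
Tff3 CPM (log axis) in 10 equal bins of spots ordered from zone 1 to zone 3 by the 9 zone markers (left) or by landmark genes that were not among them (right), in AEG-1fl/fl (blue) and AEG-1ΔMAC (red). Bars are exact Poisson 95% intervals. With the 9 markers the first and last bins were at 523 and 145 CPM in AEG-1fl/fl and at 18.4 and 2.49 CPM in AEG-1ΔMAC.

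With an independent index of landmark genes, such as Sds and Aldh1b1 for zone 1 and Slc1a2 and Gulo for zone 3, the zone ratio was -0.81 in AEG-1fl/fl and -2.27 in AEG-1ΔMAC. The shape in AEG-1fl/fl then differed at the portal end. The first bin had 389 CPM (372 to 407), less than the 454 CPM (436 to 473) of the second, and the next 3 bins lay between 419 and 432 CPM. In AEG-1ΔMAC the first bin kept the highest value, 21.2 CPM (17.2 to 25.9). The middle part stood 0.09 (0.05 to 0.14) above the outer parts on the log2 scale in AEG-1fl/fl, or 0.23 with the landmark index. In AEG-1ΔMAC it stood at -0.21 (-0.51 to 0.09). Spots rich in zone 1 landmark genes were also below the other spots in AEG-1fl/fl, at a log2 ratio of -0.43 (-0.55 to -0.31). One of these landmark genes, Apoa4, was 555 of their 1797 CPM in AEG-1fl/fl and had a zone ratio of 0.01 there. Of these AEG-1fl/fl spots 14.2% lay in the zone 3 part. The part of Apoa4 in the lower values at the portal end was not tested. A level stretch from the second to the fifth bin was thus seen in AEG-1fl/fl with the landmark index, but not with the 9 markers, where the first bin was the highest. No midlobular peak of Tff3 was detectable in AEG-1ΔMAC.

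The libraries also differed in the Tff3 level of spots rich in vessel wall or bile duct markers. The 5% of spots richest in the summed markers of a cell type were compared with the other spots of the same library. In AEG-1ΔMAC the 107 spots richest in vessel wall markers (Acta2, Tagln and Myh11) had 35.6 CPM (28.4 to 44.1) of Tff3 against 8.19 CPM (7.36 to 9.09) elsewhere, a log2 ratio of 2.12 (1.76 to 2.47). The 107 spots richest in cholangiocyte markers (among them Epcam, Krt7, Krt19 and Spp1) had 29.2 CPM (22.5 to 37.3) against 8.62 CPM (7.77 to 9.54), a log2 ratio of 1.76 (1.36 to 2.15). Spp1 alone was 67.1 of the 96.3 CPM of this list in AEG-1ΔMAC and 56.9 of 99.7 CPM in AEG-1fl/fl. The list therefore ranked spots largely by Spp1. These vessel wall-rich spots held 5.19% of all UMIs and 19.2% of the Tff3 UMIs. In AEG-1fl/fl the corresponding 127 spots had 319 CPM (297 to 343) against 356 CPM elsewhere for the vessel wall and 307 CPM (286 to 328) against 357 CPM for cholangiocytes. Their log2 ratios were -0.16 (-0.27 to -0.05) and -0.22 (-0.32 to -0.12). Tff3 was therefore above the rest of the section in such spots in AEG-1ΔMAC but slightly below it in AEG-1fl/fl.

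These spots were then compared with others at like positions. Of the cholangiocyte-rich spots, 85.0% lay in the zone 1 part in AEG-1ΔMAC against 66.1% in AEG-1fl/fl. Vessel wall-rich spots were less confined to it, with 65.4% and 52.8% in the zone 1 part and 8.41% and 22.0% in the zone 3 part. Compared with other spots of the same zone bins, Tff3 in cholangiocyte-rich spots was at a log2 ratio of 1.01 in AEG-1ΔMAC against -0.52 in AEG-1fl/fl. In vessel wall-rich spots the values were 1.63 and -0.32. Within the zone 1 part, AEG-1ΔMAC spots rich in either list had 32.9 CPM (26.4 to 40.5) and the other spots 13.6 CPM (11.6 to 15.8). In AEG-1fl/fl the same groups had 349 CPM (326 to 373) and 481 CPM (470 to 493). Both lists were at similar levels in the libraries, with summed cholangiocyte markers of 96.3 CPM in AEG-1ΔMAC against 99.7 CPM in AEG-1fl/fl, and summed vessel wall markers of 26.6 and 25.3 CPM. All members of both lists were detected in both libraries. Most Tff3 of AEG-1ΔMAC was still found outside such spots, where 1968 spots held 74.4% of it at 7.77 CPM (6.95 to 8.67), and without the 10% of spots richest in these markers the zone ratio was -2.05.

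The other marker lists were compared in the same way. In AEG-1ΔMAC spots rich in MHC class II genes had a log2 ratio of 1.47 (1.02 to 1.88), and 47 of the 107 cholangiocyte-rich spots were also among them. The 52 MHC class II-rich spots that were rich in neither cholangiocyte nor vessel wall markers had 10.6 CPM (5.27 to 18.9), which overlapped the level of the section. In AEG-1fl/fl the MHC class II-rich spots were at -0.02 (-0.13 to 0.08). Compared with other spots of the same zone bins, MHC class II-rich spots were at 1.08 in AEG-1ΔMAC, near the value of cholangiocyte-rich spots, and at -0.18 in AEG-1fl/fl. Spots rich in Kupffer cell (KC) markers, the resident macrophages in which Cre is active, were at -0.18 (-0.95 to 0.50) in AEG-1ΔMAC against 0.17 (0.07 to 0.27) in AEG-1fl/fl. Compared with other spots of the same zone bins, KC-rich spots were at -0.52 and -0.08, so the AEG-1fl/fl excess was not seen at like positions. Spots rich in hepatic stellate cell (HSC) markers were at -0.82 (-1.83 to 0.03) and -0.44 (-0.56 to -0.31). Spots rich in lipid droplet genes, such as Plin2, were at 0.10 (-0.61 to 0.73) and -0.27 (-0.38 to -0.15). Spots rich in zone 3 landmark genes were at -1.86 (-3.31 to -0.73) and -1.40 (-1.57 to -1.23), those rich in sinusoidal endothelium markers at -0.54 (-1.46 to 0.25) and -0.40 (-0.53 to -0.27), and those rich in interferon response genes at -0.30 (-1.07 to 0.37) and -0.17 (-0.28 to -0.06). Lymphocyte-rich spots were at 0.63 (0.06 to 1.15) and 0.03 (-0.08 to 0.13), and neutrophil-rich spots at 0.88 (0.37 to 1.35) and -0.19 (-0.30 to -0.08). Within zone bins the AEG-1ΔMAC values of these last lists were 0.74 and 0.79. Neutrophil markers summed to 2.68 CPM in AEG-1ΔMAC, with 73 UMIs for the most counted gene, S100a9. The neutrophil-rich spots of that library were therefore ranked on few marker UMIs.

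**Figure D3:**
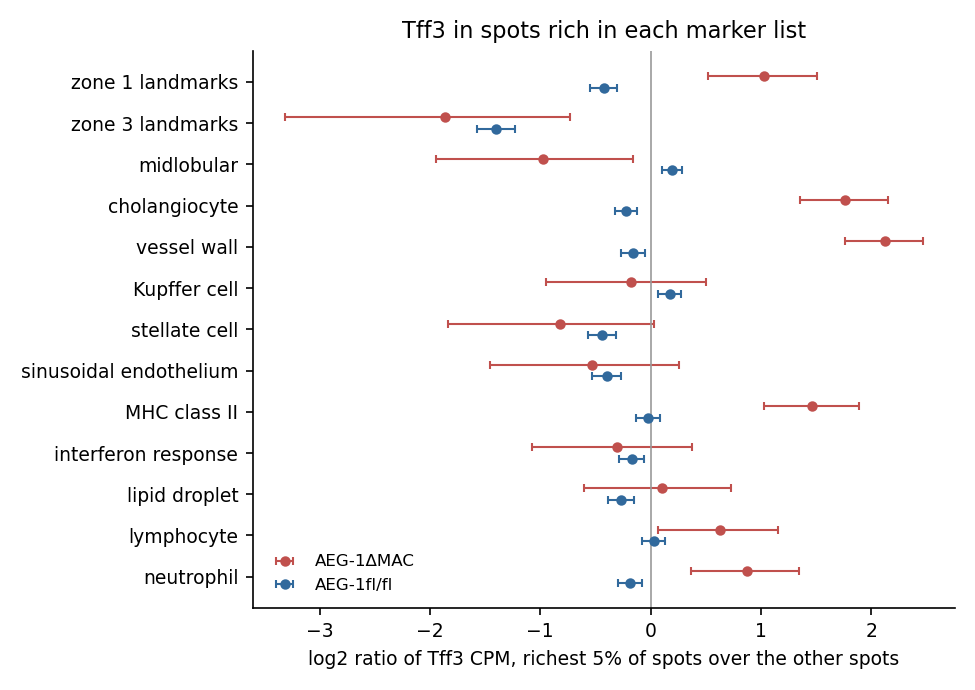
Log2 ratio of Tff3 CPM between the 5% of spots richest in each marker list and the other spots, within AEG-1ΔMAC (red) and within AEG-1fl/fl (blue), with exact 95% intervals for counting error. Vessel wall-rich and cholangiocyte-rich spots were at 2.12 and 1.76 in AEG-1ΔMAC but at -0.16 and -0.22 in AEG-1fl/fl, while zone 3 landmark-rich spots were below 0 in both.

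Co-variation over spots was measured with Pearson's r of log-transformed UMIs per 10000, across 6638 genes with at least 10 CPM in both libraries. These values are descriptions without a test, since the spots of a library share a section, and depth and position vary among them. The r of Tff3 with log depth was 0.20 in AEG-1fl/fl and 0.05 in AEG-1ΔMAC. In AEG-1fl/fl the r ranged from -0.54 to 0.55 with a median of -0.0059 over genes, and 41 genes were at 0.2 or above. In AEG-1ΔMAC it ranged from -0.23 to 0.21, and 3 genes were at 0.2 or above. When the Tff3 UMIs of AEG-1fl/fl were thinned to the level of AEG-1ΔMAC its highest r was 0.14, so the size of r cannot be compared between the libraries.

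The highest r with Tff3 in AEG-1fl/fl were those of hepatocyte genes that were higher on the zone 1 side. Their zone ratios in AEG-1fl/fl ran from -1.32 for Cyp2f2 to -0.18 for Serpina1e, so several were only slightly zonated. Alb, the serum albumin gene, led with an r of 0.55 and had a zone ratio of -0.23. It was followed by Cyp2f2 (0.45), Gls2 (0.42), the liver glutaminase, Gstp1 (0.41), a glutathione transferase, and Hpx (0.40), the haem-binding plasma protein. Then came Arg1 (0.40), Cps1 (0.39), which encodes the first enzyme of the urea cycle, Pck1 (0.38), a key enzyme of gluconeogenesis, and Hsd17b13 (0.37), a lipid droplet enzyme. Uroc1 (0.36), an enzyme of histidine breakdown, Serpina1e (0.35), an α1-antitrypsin gene, and Fgb (0.35), the fibrinogen β chain, completed the 12 highest. Between the fifth of spots with the most Tff3 (508 spots, 670 CPM of Tff3) and the fifth with the least (508 spots, 91.5 CPM), Cyp2f2 went from 1527 CPM in the least to 2563 CPM in the most, and Gls2 from 224 to 420 CPM. Alb went from 127007 to 154693 CPM, a small step on the log2 scale of 0.28. Median depth was 15327 UMIs in the spots with the least Tff3 and 19372 UMIs in those with the most.

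At the other end were genes that were higher on the zone 3 side, with zone ratios from 0.28 for Apoa2 to 2.49 for Cyp2e1. The lowest r was that of Cyp3a11 (-0.54), a drug-metabolising cytochrome P450, followed by Cyp2e1 (-0.47), Mup11 (-0.47), Cyp2c29 (-0.46), Cyp1a2 (-0.44), Apoa2 (-0.42), Rnase4 (-0.42) and Cyb5a (-0.41). Cyp2e1 was at 4819 CPM in the fifth with the least Tff3 and at 1473 CPM in the fifth with the most. Serpina1e, Mup11, Cyp3a11, Cyp2c29 and Gstp1 belong to families of close copies, so the identity of their counts is uncertain. All 6 zone 1 index genes had an r above 0, with a median of 0.39, and none of the 3 zone 3 index genes did, with a median of -0.44. The 6 hepatocyte markers measured in both libraries had a median of 0.24, against -0.0059 over all genes.

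AEG-1ΔMAC shared hepatocyte genes that were higher on the zone 1 side and added Spp1 and Apoa4. Its order was taken among genes with at least 10 CPM in both libraries. The 5 highest r in it were those of Spp1 (0.21), Hsd17b13 (0.20), Alb (0.20), Cyp2f2 (0.20) and Apoa4 (0.19), an apolipoprotein. Of the 50 genes with the highest r, 20 were common to both libraries, which is 40% of either list, where 50 genes are 0.753% of all. With the Tff3 UMIs of AEG-1fl/fl thinned to the AEG-1ΔMAC level it was 13, or 26%. Spp1 and Apoa4 were the ones that parted. In AEG-1fl/fl their r were -0.04 and -0.19. In the 346 AEG-1ΔMAC spots with a Tff3 UMI, Spp1 was at 137 CPM against 52.7 CPM in the 1794 spots without, a log2 ratio of 1.38 (1.27 to 1.49). In AEG-1fl/fl it was at 25.3 CPM in the fifth with the most Tff3 and at 57.4 CPM in the fifth with the least, a log2 ratio of -1.18 (-1.40 to -0.96). The Spp1 level of the whole library was 67.1 CPM for AEG-1ΔMAC, near the 56.9 CPM of AEG-1fl/fl. Spp1 was also the largest part of the cholangiocyte list, so its co-variation is not separate from the result for cholangiocyte-rich spots. Apoa4 went from 493 CPM in the spots without a Tff3 UMI to 664 CPM in those with one in AEG-1ΔMAC. In AEG-1fl/fl it was at 687 CPM in the fifth with the least Tff3 and at 393 CPM in the fifth with the most.

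Several genes outside the naming rule were chosen after their values were seen. Some connective tissue genes differed between spots in the same directions as Spp1. This was not general, since the 4 HSC markers, among them the matrix gene Dcn (0.01), had a median r of -0.02 in AEG-1ΔMAC. In AEG-1ΔMAC spots with and without a Tff3 UMI, Gsn, the actin-severing protein gelsolin, had 39.8 and 12.2 CPM. Col1a1, a chain of type I collagen, had 40.3 and 14.6 CPM, and Dpt, the matrix protein dermatopontin, 34.0 and 11.4 CPM. The r of Gsn with Tff3 in AEG-1ΔMAC was 0.23, above that of Spp1, and the r of Dpt was 0.20. Both genes were outside the order of r because they were at 6.40 and 7.85 CPM in AEG-1fl/fl. In AEG-1fl/fl Col1a1 was lower in the fifth with the most Tff3, at 13.0 CPM against 24.6 CPM, and Gsn and Dpt had log2 ratios of -0.94 (-1.54 to -0.36) and -1.40 (-1.99 to -0.84). Duct genes other than Spp1 were higher in AEG-1ΔMAC spots with a Tff3 UMI but were mixed in AEG-1fl/fl. Krt19, a keratin of bile duct cells, was at 3.86 and 0.69 CPM in AEG-1ΔMAC, a log2 ratio of 2.48 (1.68 to 3.30), and at -1.28 (-3.90 to 0.95) in AEG-1fl/fl, which the depth left without a direction. Krt7, another such keratin, was at 1.41 (0.76 to 2.05) and 0.12 (-0.89 to 1.15). Epcam, an epithelial adhesion molecule, was at 1.31 (0.77 to 1.82) and -1.01 (-2.04 to -0.03). Sox9, a transcription factor of duct cells, was higher with Tff3 in both, at 0.45 (0.17 to 0.73) and 0.39 (0.11 to 0.68). Summed cholangiocyte markers, mostly Spp1 in this library, were at 420 CPM in the 20 AEG-1ΔMAC spots with 3 or more Tff3 UMIs. In other spots they were at 92.6 CPM. Of the 20 spots, 9 were among the vessel wall-rich spots and 6 among the cholangiocyte-rich ones. Their summed KC markers were lower, at 385 against 576 CPM, and their zone 3 landmarks were at 624 against 1712 CPM.

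**Figure D4:**
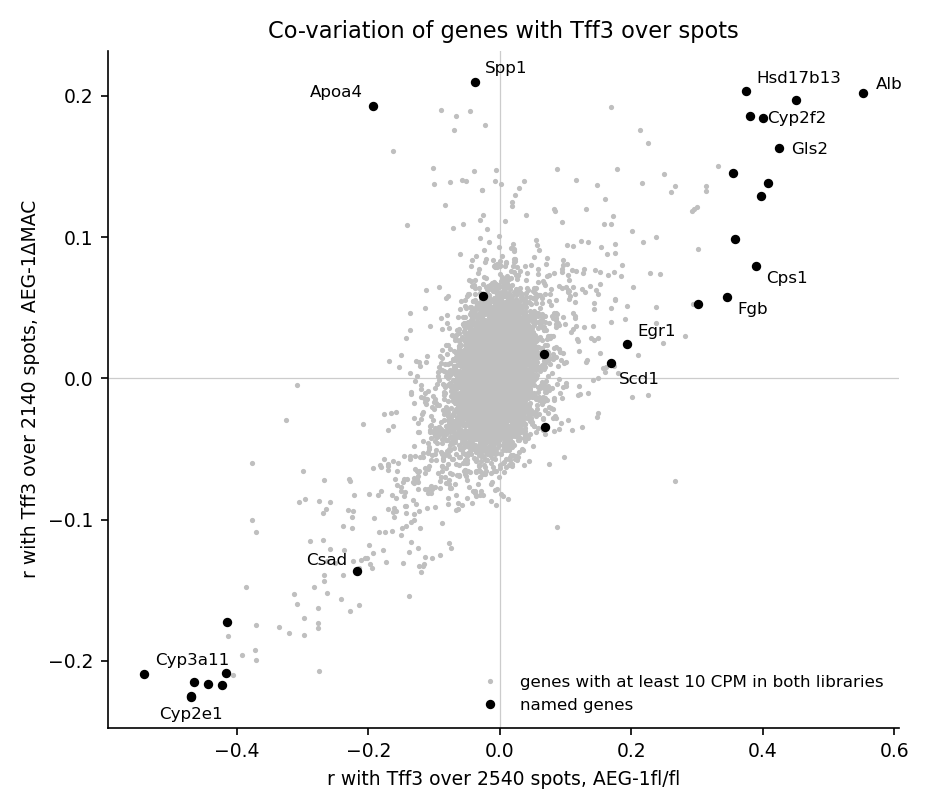
Pearson's r with Tff3 over the 2540 spots of AEG-1fl/fl (horizontal axis) and over the 2140 spots of AEG-1ΔMAC (vertical axis) for 6638 genes (grey) and the genes named in the text (black). Alb, Cyp2f2 and Hsd17b13 were high in both and Cyp3a11 and Cyp2e1 low in both, while Spp1 was at 0.21 in AEG-1ΔMAC against -0.04 in AEG-1fl/fl.

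Much of this co-variation in AEG-1fl/fl went with position. When the mean of each of 20 zone bins was subtracted, only 4 of the 12 genes with the highest r stayed among the 50 highest. The r of Cyp2f2 became 0.01 and that of Hpx -0.05. Alb kept 0.30 and Gstp1 0.15. The highest value was then that of Scd1 (0.31), which encodes stearoyl-CoA desaturase, the enzyme that makes monounsaturated fatty acids. It was followed by Alb, Egr1 (0.19), an immediate-early transcription factor, Fabp5 (0.17), a fatty acid-binding protein, Hmgcs1 (0.16), of cholesterol synthesis, Acss2 (0.16), which makes acetyl-CoA from acetate, Apoa1 (0.16) and Csad (0.16), of taurine synthesis. Csad had an r of -0.22 before zone was removed, so its sign turned. The lowest values were those of Cyp3a11 (-0.28) and Apoa4 (-0.27). The step from the spots with the least to the most Tff3 was small for Scd1, from 2293 to 2641 CPM, and for Egr1 from 108 to 157 CPM.

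Gene lists were then described by their counts. After zone was removed in AEG-1fl/fl, 59.1% of all 6638 genes had an r above 0. Of the lists, all 3 midlobular genes did, with a median of 0.10. Likewise 9 of 10 genes of de novo lipogenesis had an r above 0 with a median of 0.10, as did 7 of 7 genes of sterol synthesis with a median of 0.08 and 7 of 9 PPARα targets with a median of 0.09. The median over all genes was 0.0061. Before zone was removed, 8 of 10 lipogenesis, 4 of 7 sterol and 1 of 9 PPARα genes had an r above 0. Their medians were then 0.06, 0.03 and -0.17, so the PPARα list turned its sign. Of all genes 42.4% were above 0 then, with a median of -0.0059. In AEG-1ΔMAC, after zone was removed, the lipogenesis, sterol and PPARα lists had medians of 0.01, 0.01 and -0.0031, and the median over all genes was 0.0055. The midlobular list had a median of -0.03 in AEG-1ΔMAC, with 0 of 3 genes above 0. There 59.8% of all genes had an r above 0. All 3 MHC class II genes did, with a median of 0.10, and both cholangiocyte genes measured did, Spp1 (0.15) and Sox9 (0.03). Of the 50 genes with the highest r after zone was removed, 2 were common to the libraries, which is 4% of either list, beside the same 0.753%. The gap between libraries in Tff3 level limits this comparison, because r is held near 0 at few UMIs.

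Some of these genes also differed between the libraries themselves. Of the 50 genes with the highest r in AEG-1fl/fl after zone was removed, 4 were at least 2-fold lower in AEG-1ΔMAC, namely Scd1 (-1.62), Egr1 (-1.63), Fabp5 (-1.84) and Hbb-bt, a globin of red cells, on the log2 scale. Of all 6638 genes compared here, 0.331% were. Without zone removed it was 2 of the 50 highest, Egr1 and Slc3a1, an amino acid transporter subunit. Among the others, Alb was at -0.69, Cyp2f2 at 0.19 and Gstp1 at 0.21. The median log2 ratio of the 50 highest was -0.14 before and -0.17 after zone was removed, where that of all genes compared here was 0.14. This is a description, since the lists were read from one of the libraries compared.

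**Figure D5:**
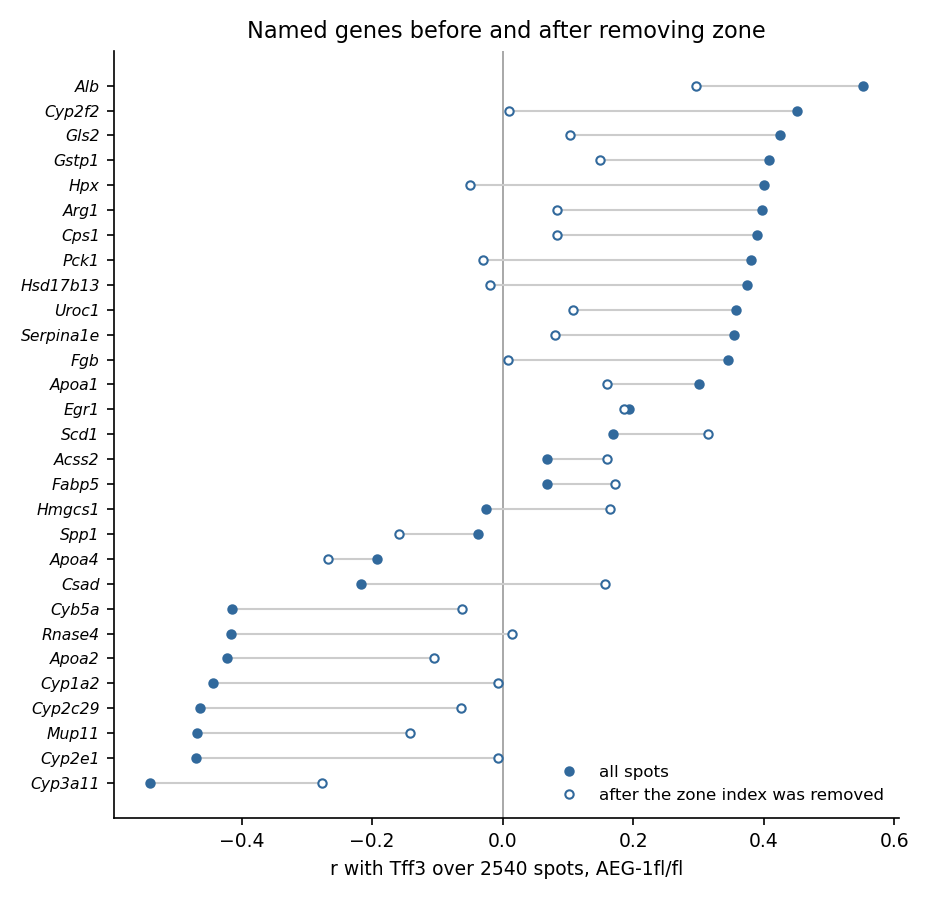
Pearson's r with Tff3 over the 2540 spots of AEG-1fl/fl for the named genes, before (filled) and after (open) the mean of each of 20 zone bins was subtracted. Cyp2f2 moved from 0.45 to 0.01, Scd1 from 0.17 to 0.31 and Csad from -0.22 to 0.16, while Cyp3a11 stayed lowest.

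The partners of Tff3 from mucous epithelia were almost missing from both livers. Of the 16 other trefoil and goblet cell genes, 8 had 0 UMIs in AEG-1ΔMAC against 10 in AEG-1fl/fl, and they summed to 1.17 and 0.596 CPM. Tff2 had 20 and 7 UMIs, a log2 ratio of 1.66 (0.36 to 3.15), opposite in sign to that of Tff3. Muc2, the main gel mucin of the intestine, had 10 UMIs in each. Gkn3 had 11 UMIs in AEG-1ΔMAC against 0 in AEG-1fl/fl.

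Of the proteins proposed to bind trefoil peptides or to carry their signal, 2 of 7 reached a mean of 10 CPM. Egfr, the epidermal growth factor receptor, was at 513 CPM in AEG-1ΔMAC against 464 CPM in AEG-1fl/fl. Cd74, the MHC class II invariant chain and a partner of the chemokine receptor CXCR4, was at 472 and 248 CPM, a log2 ratio of 0.93 (0.90 to 0.96). Neither was 2-fold apart. Cxcr4 had 71 and 98 UMIs, Ackr3, an atypical chemokine receptor, 79 and 55 UMIs, Dmbt1 8 and 0 UMIs, and Lingo2 0 UMIs in both. Of 16 transcription factors tied to trefoil genes in epithelia, 11 were compared. In AEG-1ΔMAC, Foxa1 was higher at 31.6 against 9.32 CPM (log2 ratio 1.76, 1.61 to 1.92) and Foxa2 at 34.4 against 15.1 CPM (1.19, 1.06 to 1.31), both pioneer factors of liver and gut, and 1.27% of all genes compared were higher by as much as 2-fold. Esr1, the oestrogen receptor α, was lower at 21.5 against 45.2 CPM (-1.07, -1.18 to -0.96). Foxa3, Hif1a, Epas1 and Stat3 lay between 0.02 and 0.17 on the log2 scale. Over AEG-1fl/fl spots the highest r with Tff3 among these factors was that of Esr1, at 0.12, and Foxa2 was at -0.04. Spdef and Atoh1, factors of goblet cell differentiation, had 0 UMIs in both libraries.

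Shared array positions were examined as a further source of counts. In AEG-1ΔMAC Tff3 was at 10.0 CPM (9.03 to 11.1) in the 1776 spots whose barcode was under tissue in AEG-1fl/fl as well and at 7.84 CPM (6.08 to 9.96) in the 364 others. Split by the Tff3 UMIs of the same barcode in AEG-1fl/fl, the AEG-1ΔMAC level was 8.60, 8.30, 10.9 and 11.98 CPM from the lowest to the highest of 4 equal groups, and the r over these spots was 0.05. The intervals of the lowest and highest groups, 6.76 to 10.8 and 9.91 to 14.3, overlapped. The zone ratio of AEG-1ΔMAC in the 364 spots alone was -3.35. Whether any AEG-1ΔMAC Tff3 UMIs were carried over between capture areas was not tested.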

How the data were processed

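ST data of 1 AEG-1ΔMAC and 1 AEG-1fl/fl liver section (10x Visium, formalin-fixed tissue, probe based) were analysed. The authors used Space Ranger 2.0.1 with mm10, and Seurat 4.3.0 appears in the submitters' processing notes. The deposited files hold counts of UMIs per gene and spot, not normalised. Groups were taken from the genotype labels.

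Spots with at most 50000 UMIs and 100 to 7000 genes were kept, after the study. CPM is a gene's UMIs per 1000000 UMIs of the spots summed. Intervals are exact Poisson (CPM), exact binomial (shares) and exact conditional binomial (log2 ratios), at 95%, and cover counting error only. No p-value was computed, since spots are not replicates. Probes differ in binding, so levels were not compared between genes. Zone index, thinning to 10000 UMIs (seeded), marker-rich spots (5%) and r of log UMIs per 10000 were computed in Python 3.11.15 (numpy 2.4.6, scipy 1.17.1). TMM factors (edgeR 4.0.16) and size factors (DESeq2 1.42.0) served as alternatives. The interval, spread and zone steps were tested on simulated data.

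Tff3 and the gene lists were chosen with earlier results of these data known. Named were Tff3, the trefoil lists, the genes next to it in the order of ratios, the 12 highest and 8 lowest r in AEG-1fl/fl, the 5 highest in AEG-1ΔMAC, the 8 highest in AEG-1fl/fl after zone was removed, and the zone markers. Of the genes that this rule selects, 1 is not reported here. Gene models came from GENCODE M21 on GRCm38, an annotation that may differ from the one counted on. A promoter and protein sequence of Tff3 were not used here.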

Additional observations from a re-analysis of the deposited data

Results flagged for a closer look

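For 5 marker lists, Tff3 moved in opposite directions in marker-rich spots of the libraries, with both intervals clear of 0. The log2 ratio of Tff3 CPM in marker-rich spots over other spots was 2.12 in AEG-1ΔMAC against -0.16 in AEG-1fl/fl for vessel wall markers, and 1.76 and -0.22 for cholangiocyte markers. It was 1.03 and -0.43 for zone 1 landmark genes, 0.88 and -0.19 for neutrophil markers, and -0.98 and 0.19 for midlobular genes. Set against other spots of the same zone bins, AEG-1ΔMAC spots rich in zone 1 landmarks had a log2 ratio of only 0.06. They held 39 Tff3 UMIs where those bins gave 37.5, and 97.2% of these spots lay in the zone 1 part. The excess in this library was thus hardly seen at like positions, while the AEG-1fl/fl value became -0.71. Within bins, the neutrophil values were 0.79 and -0.12, and the midlobular ones -0.58 and 0.22. The differences between the libraries were not tested, since each genotype had 1 library. Apoa4 was one of the zone 1 landmark genes, and its own zone ratio was -1.36 in AEG-1ΔMAC against 0.01 in AEG-1fl/fl. Neutrophil markers summed to 2.68 CPM in AEG-1ΔMAC against 15.8 CPM in AEG-1fl/fl. The 90 neutrophil-rich AEG-1ΔMAC spots that were rich in neither cholangiocyte nor vessel wall markers had 10.2 CPM (6.23 to 15.8) of Tff3. Of the midlobular genes, Hamp had a zone ratio of 0.31 in AEG-1ΔMAC against -0.71 in AEG-1fl/fl. The part of these values in the Tff3 ratios was not tested.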

How the results depend on the processing

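The log2 ratio of Tff3 between the libraries ran from -5.35 to -5.20 over 6 settings, with -5.35 when the 50 most abundant genes were left out of the total. Thinning to 10000 UMIs lowered the share of spots to 7.99% in AEG-1ΔMAC against 93.0% in AEG-1fl/fl, and it was 16.6% at the AEG-1ΔMAC level. At 5000 UMIs the excess spread was 0.367 in AEG-1ΔMAC against 0.179 in AEG-1fl/fl. The zone ratio was negative throughout. In AEG-1fl/fl it was -0.81 with the landmark index, -1.85 for the outer 10%, -1.10 without duct- and vessel-rich spots and -1.10 in spots with unshared barcodes, where AEG-1ΔMAC had -3.35. The middle ratio of AEG-1fl/fl was 0.23 with the landmark index. Of the 12 genes with the highest r in AEG-1fl/fl, 4 stayed among the 50 highest without zone and 5 by the ratio of most to least Tff3. In AEG-1ΔMAC it was 1 of 5 in both. All stayed with Spearman's rho or thinning. Genes at least 2-fold lower numbered 36 at a mean of 10 CPM, 173 at 1 CPM, 12 at 50 CPM and 124 at 1.5-fold, and genes at least 2-fold higher 88, 194, 35 and 298. The cause of these moves was not tested.

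Of 91 alternative values for marker-rich spots, 69 stayed inside the main interval, and of the rest 17 kept their sign and 5 turned. At 10% of spots, vessel wall in AEG-1ΔMAC was at 1.504, and in AEG-1fl/fl zone 3 landmarks were at -1.17, cholangiocyte at -0.10, stellate at -0.30 and endothelium at -0.22. At 2%, MHC class II in AEG-1ΔMAC was at 2.28, and in AEG-1fl/fl zone 1 landmarks were at -0.68, zone 3 landmarks at -1.70, cholangiocyte at -0.35 and endothelium at -0.61. Thinned to 10000 UMIs, lipid droplet in AEG-1fl/fl was at -0.14. In 1 random draw of 476 AEG-1fl/fl Tff3 UMIs, matching the AEG-1ΔMAC level and chosen after seeing the data, 5 lists turned sign, midlobular (-0.43), stellate (0.10), endothelium (0.087), interferon (0.17) and lymphocyte (-0.16), the last from 0.03 with an interval that held 0. In that draw zone 1 landmarks were at -0.86, cholangiocyte at -0.91, vessel wall at -0.41, MHC class II at -0.40, lipid droplet at -1.02 and neutrophil at -1.16. Its intervals held the value of all UMIs for 12 of 13 lists, so at this level small ratios had no settled sign. The removal of duct- and vessel-rich spots and the restriction to unshared barcodes were also chosen after seeing the data. No paired analysis was possible because each genotype had 1 library. The low Tff3 level limits AEG-1ΔMAC most, where the bin nearest zone 3 rested on 11 Tff3 UMIs.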
